A study of Mus musculus with 6 samples.

Results

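The genes described here are 53 named lysine methyltransferases, arginine methyltransferases and lysine demethylases, taken by symbol from a table of 19323 genes. The table's Ensembl identifiers were matched to symbols, and 52 of the 53 were found. The other one is not analysed here. All 52 passed the filter on low values (a mean over all libraries of 10 or more). They were measured by RNA-seq in splenic CD8+ T cells, labelled as primary cells, of wild-type C57BL/6 mice fed either of 2 diets for 7 weeks from an age of 6 weeks. The diets were MCDHFD (3 libraries) and ND (3 libraries), named here as the labels name them, and the labels present the mice as MASH models, MASH being an inflamed form of fatty liver. How the T cells were purified is not given, and of a whole-RNA and an mRNA library kit the labels do not say which was used for which library. Whether each library stands for its own mouse is not stated, and the p-values therefore rest on the scatter among these libraries, which may be technical. The values are the authors' normalized counts per gene, and the 5 libraries whose reads were recovered from them held 13188812 to 15482458 reads. Fold changes are log2 differences of the normalized count plus 1, MCDHFD minus ND, and a gene is called at a limma adjusted p under 0.05, adjusted over all 13430 tested genes. Coordinates are on GRCm38 (mm10).

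Histone tails are methylated on lysine and arginine by enzymes that take the methyl group from S-adenosylmethionine, and lysine methylation is removed by flavin-dependent and iron-dependent demethylases. Methylation of histone H3 at lysine 4 (H3K4), lysine 36 (H3K36) and lysine 79 (H3K79) marks active genes, while methylation at lysine 9 (H3K9) and lysine 27 (H3K27) marks silent chromatin. In CD8 T cells such marks help to fix naive, effector and memory gene programmes, and the H3K27 enzyme EZH2 and the H3K9 enzyme SUV39H1 are known from work on that silencing.

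The labelled cell type was checked first, since every value below is relative to a library's total RNA. All 20 genes of a CD8 T cell identity list were detected in both diets, and all 20 were called lower in MCDHFD (median log2 fold change -0.98). Their sum was 0.484% to 0.561% of all normalized counts in MCDHFD libraries, against 0.945% to 0.953% in ND libraries. Cd8a averaged 5264 ± 458 normalized counts in MCDHFD libraries and 13784 ± 350.4 in ND libraries (SD, n = 3 each). Lists for other cell types also differed. Monocyte and macrophage genes were mostly higher in MCDHFD (23 of 25 higher and 1 lower), and their sum was 2.9% to 3.52% of all normalized counts in MCDHFD libraries, against 0.6% to 0.73% in ND libraries. Erythroid genes (20 of 20 higher and 0 lower) and neutrophil genes (13 of 15 higher and 0 lower) were higher in MCDHFD, and B cell genes (0 of 12 higher and 12 lower) and dendritic cell genes (2 of 13 higher and 11 lower) lower. Plasma cell genes (5 of 9 higher and 1 lower) were more often higher. NK cell genes (1 of 7 higher and 5 lower) and CD4 T cell genes (1 of 7 higher and 5 lower) were more often lower. No marker of these lists was at 0 in all libraries of a diet. In bulk RNA, fewer cells of a type and less RNA per cell cannot be told apart, and the part of these other cells in the results below was not tested. When libraries were instead scaled to an equal mean of the CD8 identity genes, the median over the 13430 genes was 0.96 on the log2 scale, against 0.0038 with the deposited scaling. This other scaling, written below as CD8 identity genes held equal, equalized only their mean. With it, 7 of the 20 identity genes were still called higher, 7 lower and 6 not called. Directions below are therefore relative to the other genes in the table, and the values under that scaling stand beside them.

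**Figure D1:**
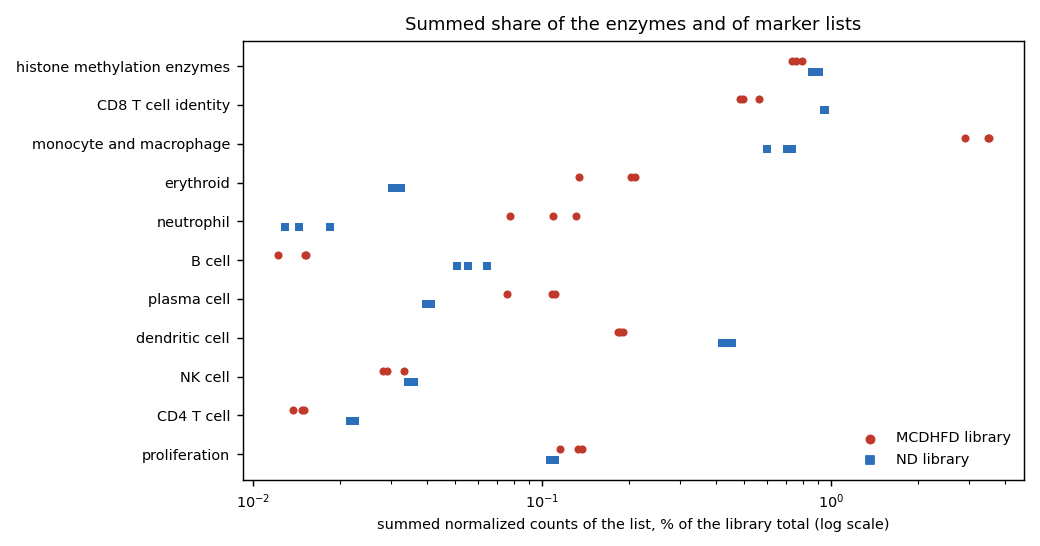
Summed normalized counts of the histone methylation enzymes and of each marker list as a percentage of the library total (x axis, log scale), with 1 point per library, MCDHFD circles above ND squares. The CD8 identity sum was 0.484% to 0.561% of all normalized counts in MCDHFD libraries, against 0.945% to 0.953% in ND libraries.

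Across the family, changes were frequent but small. Of the 52 members, 29 passed the test, 55.8% of them, where 58.4% of all tested genes passed, so the share of members that changed was near the background. By direction, 9 members (17.3%) were higher and 20 (38.5%) lower in MCDHFD, where 30.3% of all tested genes were higher and 28.1% lower. With the CD8 identity genes held equal this split turned to 49 higher and 1 lower, where 81.6% of all tested genes were higher and 3.76% lower. Changes of at least 1.5-fold were called in 6 members (11.5%), where 33.8% of all tested genes had one. The median absolute log2 fold change was 0.24 for the members and 0.40 for all tested genes. With the deposited scaling 31 of the 52 members lay below the median of all tested genes. The other scaling shifts all genes nearly alike, so it could hardly change that count. The members' sum was 0.796%, 0.733% and 0.758% of all normalized counts in the MCDHFD libraries, against 0.907%, 0.863% and 0.891% in the ND libraries, and the diets did not overlap. Much of that difference lay in Kmt2d (mean 11789 normalized counts in MCDHFD and 18324 in ND libraries) and Kmt2a (5398 and 9498). The libraries of the diets did not overlap in 34 members (65.4%), 14 of them higher and 20 lower, where 65.4% of all tested genes did not overlap, 33.2% higher and 32.3% lower.

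**Figure D2:**
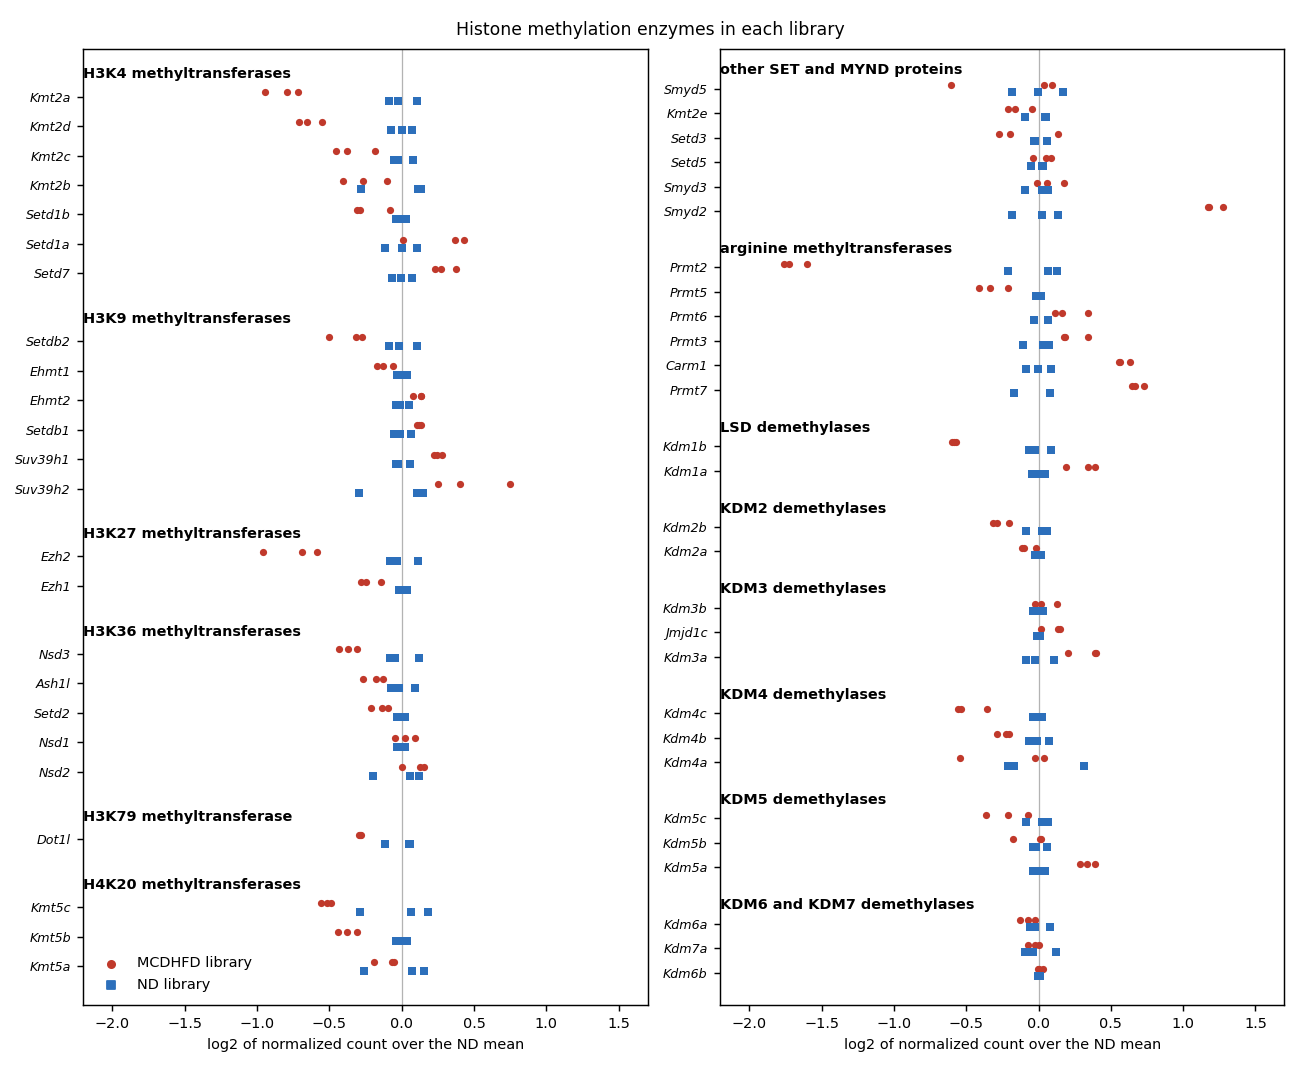
Each member's normalized count in each library, as log2 of the count over the member's ND mean (x axis), by role; circles are MCDHFD libraries and squares ND libraries. Prmt2 stands apart on the low side (log2 fold change -1.67) and Smyd2 on the high side (1.21), while Kdm6b libraries of both diets lie on each other.

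The 2 members that moved most were an arginine methyltransferase and a MYND-domain lysine methyltransferase. Prmt2 (ENSMUSG00000020230, chromosome 10, 76207222 to 76237865, minus strand) is a weakly active arginine methyltransferase that acts as a nuclear receptor coactivator. It had 47.1, 51.1 and 45.9 normalized counts in the MCDHFD libraries, against 169, 134 and 162 in the ND libraries (log2 fold change -1.67, SE 0.15, limma adjusted p = 2.25e-05). Every MCDHFD library lay far below every ND library. Prmt2 was also the single member called lower with the CD8 identity genes held equal (log2 fold change -0.72, limma adjusted p = 0.00311). Smyd2 (ENSMUSG00000026603, chromosome 1, 189880492 to 189922363, minus strand) methylates p53 and other proteins as well as histone H3. It had 596, 555 and 554 normalized counts in the MCDHFD libraries, against 270.2, 250.01 and 217 in the ND libraries (log2 fold change 1.21, SE 0.10, limma adjusted p = 1.10e-05). Every MCDHFD library had more than any ND library. With the CD8 identity genes held equal its log2 fold change was 2.17. An annotated gene on the opposite strand, Gm37422, overlaps 30% of the exonic bases of Smyd2, and reads of the pair cannot be told apart without strand. Gm37422 itself was listed at 0, 0 and 0 normalized counts in the MCDHFD libraries and at 4.89, 6.81 and 7.92 in the ND libraries.

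The promoters of the members with the lowest fold changes (Prmt2 and Kmt2a) and the highest (Smyd2 and Prmt7) are shown, since these carry the extremes of the family. Each line gives the bases upstream of the earlier of the RefSeq and GENCODE start sites, 5′ to 3′ on the gene's strand, from RefSeq's GRCm38.p6, with matches to 8 motifs in capitals.
Prmt2 promoter, chr10:76237866-76238115, minus strand: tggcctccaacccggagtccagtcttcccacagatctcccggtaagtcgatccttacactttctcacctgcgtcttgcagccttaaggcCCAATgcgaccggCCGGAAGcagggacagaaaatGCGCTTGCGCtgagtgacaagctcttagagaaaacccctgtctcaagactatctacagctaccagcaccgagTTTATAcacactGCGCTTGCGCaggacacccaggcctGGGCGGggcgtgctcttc
Kmt2a promoter, chr9:44881297-44881539, minus strand: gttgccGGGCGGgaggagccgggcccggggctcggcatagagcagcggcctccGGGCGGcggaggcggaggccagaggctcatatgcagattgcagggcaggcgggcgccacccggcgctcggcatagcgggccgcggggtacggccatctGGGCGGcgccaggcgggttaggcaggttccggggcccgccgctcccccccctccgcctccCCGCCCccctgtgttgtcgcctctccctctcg
Smyd2 promoter, chr1:189922364-189922541, minus strand: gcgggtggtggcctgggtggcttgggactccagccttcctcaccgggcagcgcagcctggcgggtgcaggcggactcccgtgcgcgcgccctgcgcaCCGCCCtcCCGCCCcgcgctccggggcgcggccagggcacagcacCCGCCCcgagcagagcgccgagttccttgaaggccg
Prmt7 promoter, chr8:106210804-106210935, plus strand: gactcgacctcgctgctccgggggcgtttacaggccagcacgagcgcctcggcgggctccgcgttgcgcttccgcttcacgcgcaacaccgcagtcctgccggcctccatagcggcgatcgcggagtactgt
The motifs searched on both strands were the GC box with the letters GGGCGG, the ETS motif with the letters CCGGAAG, an NRF1-type motif, the CCAAT box, the TATA box with the letters TATAAA, the cyclic AMP response element with the letters TGACGTCA, the E-box with the letters CACGTG and the E2F motif with the letters TTTCCCGC. The Prmt2 stretch held 2 matches to the NRF1-type motif, 1 each to the GC box, the ETS motif and the CCAAT box, and 1 to the TATA box on the reverse strand. Of the 32851 promoters in the RefSeq promoter set, 3.74% hold the NRF1-type motif in a stretch of the same length (250 bases) and 0.484% hold at least 2 matches, while 32.7% hold the GC box, 6.91% the ETS motif, 33.8% the CCAAT box and 12.4% the TATA box. The Kmt2a stretch held 4 matches to the GC box and the Smyd2 stretch 3, numbers that 3.74% and 3.10% of promoters reach over 243 and 178 bases. The Prmt7 stretch of 132 bases held none of these letters. No 2 matched motifs overlapped. These matches are descriptions of letters, not of bound factors.

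The H3K4 methyltransferases of the KMT2 and SETD1 families work in COMPASS complexes. Of the 7 H3K4 genes, 4 were lower, 1 was higher and 2 were not called (6 higher and none lower with the CD8 identity genes held equal). Among all tested genes 28.1% were lower and 30.3% higher (3.76% and 81.6% with that scaling). Kmt2a (ENSMUSG00000002028, chromosome 9, 44803355 to 44881296, minus strand), the MLL1 gene, which maintains homeobox gene expression, had 5788, 4932 and 5475 normalized counts in the MCDHFD libraries, against 10225, 8931 and 9336 in the ND libraries (log2 fold change -0.82, SE 0.07, limma adjusted p = 2.23e-05). Kmt2d and Kmt2c encode the enzymes that monomethylate H3K4 at enhancers. Kmt2d had 12527, 11181 and 11661 normalized counts in the MCDHFD libraries, against 19222, 17380.1 and 18371 in the ND libraries (log2 fold change -0.64, SE 0.06). Kmt2c, at 5757, 4779 and 5043 in the MCDHFD libraries, against 6925, 6313 and 6426 in the ND libraries, had a log2 fold change of -0.34. In all 3 genes the diets did not overlap, as in 5 of the 7 H3K4 genes and in 65.4% of all tested genes. Setd1b fell slightly (log2 fold change -0.23, limma adjusted p = 0.0197), and its call ended without MCDHFD replicate 2 or 3 or ND replicate 1 or 3 (limma adjusted p from 0.0511 to 0.0714) and in the count tests. Setd7, whose product monomethylates H3K4 and many other proteins, rose (log2 fold change 0.29, limma adjusted p = 0.00273). Setd1a and Kmt2b, with log2 fold changes of 0.27 and -0.25, were not called, although Setd1a passed without MCDHFD replicate 2 (0.40) and Kmt2b without ND replicate 2 (-0.38). Of Setd1a, 51.8% of the exonic bases also belong to the annotated gene Gm49388 on the same strand, so its value is uncertain.

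Of the 6 H3K9 methyltransferases, 1 was higher, 1 lower and 4 were not called (6 higher with the CD8 identity genes held equal), where 30.3% of all tested genes were higher and 28.1% lower. The libraries of the diets did not overlap in any of the 6, with 4 higher and 2 lower in MCDHFD, where 65.4% of all tested genes did not overlap. Setdb2 had 581, 496 and 566 normalized counts in the MCDHFD libraries, against 662, 756 and 693 in the ND libraries (log2 fold change -0.36, limma adjusted p = 0.00581). Suv39h1, an enzyme of heterochromatin trimethylation, had 1018, 977 and 991 in the MCDHFD libraries, against 816, 824 and 874 in the ND libraries (log2 fold change 0.25, limma adjusted p = 0.00583). Setdb2 was lower and Suv39h1 higher in every MCDHFD library than in any ND library. An annotated gene on the opposite strand, Gm14820, overlaps 14.6% of the exonic bases of Suv39h1. Ehmt2, the gene of the dimethylating enzyme G9a and the most highly counted of the group, had 2681, 2778 and 2775 in the MCDHFD libraries, against 2621, 2467 and 2516 in the ND libraries, and was not called (log2 fold change 0.12, limma adjusted p = 0.0736). Suv39h2, a relative of Suv39h1, had the lowest level per kb of exon of the members over both diets, and it had 74.4, 82.6 and 105 normalized counts in the MCDHFD libraries, against 50.9, 67.1 and 69.3 in the ND libraries. Its standard error was the largest among the members (log2 fold change 0.48, SE 0.20, limma adjusted p = 0.066). It passed without MCDHFD replicate 1 (0.58, limma adjusted p = 0.0479). Dclre1c, on the opposite strand, overlaps 8.10% of the exonic bases of Suv39h2. Dclre1c had 598, 572 and 615 normalized counts in the MCDHFD libraries, against 494, 536 and 555 in the ND libraries.

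EZH1 and EZH2 are the alternative catalytic subunits of Polycomb repressive complex 2 (PRC2), and EZH2 is typical of dividing cells. Both genes were lower in MCDHFD, and with the CD8 identity genes held equal Ezh1 was called higher (log2 fold change 0.74) and Ezh2 not called (0.22). Ezh2 (ENSMUSG00000029687, chromosome 6, 47530139 to 47595341, minus strand) had 228, 275 and 296 normalized counts in the MCDHFD libraries, against 479, 434 and 419 in the ND libraries (log2 fold change -0.74, SE 0.11, limma adjusted p = 5.21e-04). Ezh1 had 1642, 1530.2 and 1497 in the MCDHFD libraries, against 1791, 1794 and 1868 in the ND libraries (log2 fold change -0.22, SE 0.06, limma adjusted p = 0.0079). Per kb of exon, Ezh2 stood at 39.9 normalized counts in MCDHFD libraries and 66.4 in ND libraries, below Ezh1 at 209 in MCDHFD and 244 in ND. Of 26 proliferation genes, 15 were higher and 3 lower in MCDHFD (26 higher with the CD8 identity genes held equal). Among all tested genes 30.3% were higher and 28.1% lower (81.6% higher with that scaling). Mki67, from that list, had 2833 ± 439.6 normalized counts in MCDHFD libraries and 1300.5 ± 102 in ND libraries (SD, n = 3 each). Whether the proliferation genes and Ezh2 were read from the same cells was not tested.

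H3K36 methyltransferases include the dimethylating enzymes NSD1, NSD2, NSD3 and ASH1L and the trimethylating enzyme SETD2, which travels with RNA polymerase II. Of the 5 genes, 3 were lower and 2 not called, where 28.1% of all tested genes were lower. With the CD8 identity genes held equal all 5 were higher, where 81.6% of all tested genes were. Nsd3 had the largest fold change of the 5, with 4105, 3762 and 3927 normalized counts in the MCDHFD libraries, against 5524, 4918 and 4800.4 in the ND libraries (log2 fold change -0.37, limma adjusted p = 0.00126). Ash1l (log2 fold change -0.19) and Setd2 (-0.15) were lower by little. Ash1l had 2626, 2393 and 2546 in the MCDHFD libraries, against 3062, 2837 and 2736 in the ND libraries, and Setd2 had 3396, 3136 and 3312 in the MCDHFD libraries, against 3694, 3644 and 3556 in the ND libraries. The diets did not overlap in either gene, where 32.3% of all tested genes were lower without overlap. The call of Ash1l, however, ended without MCDHFD replicate 2 or 3 or ND replicate 1 or 2 (limma adjusted p from 0.0538 to 0.0845). That of Setd2 ended without any 1 library except MCDHFD replicate 1 (limma adjusted p from 0.057 to 0.108). Nsd1 overlapped between diets, at 6103, 5524 and 5813 in the MCDHFD libraries, against 5814, 5724 and 5598 in the ND libraries (log2 fold change 0.02).

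DOT1L, the H3K79 enzyme, has no SET domain and acts on transcribed genes. Dot1l had 1884, 1888 and 1872 normalized counts in the MCDHFD libraries, against 2120.4, 2375 and 2393 in the ND libraries, with no overlap (log2 fold change -0.28, limma adjusted p = 0.00315; 0.68 with the CD8 identity genes held equal). Of the H4K20 enzymes, KMT5A adds the first methyl group and KMT5B and KMT5C the further ones. Kmt5c had 517, 493 and 508 normalized counts in the MCDHFD libraries, against 595, 758 and 824 in the ND libraries (log2 fold change -0.51, SE 0.11). Kmt5b had 1800.5, 1713 and 1643 in the MCDHFD libraries, against 2237, 2166 and 2283 in the ND libraries (log2 fold change -0.38, SE 0.06). Both fell without overlap, as 32.3% of all tested genes did, whereas Kmt5a was not called (log2 fold change -0.09). All 3 were called higher with the CD8 identity genes held equal, where 81.6% of all tested genes were. Kmt5a passed as lower without ND replicate 2 (-0.22, limma adjusted p = 0.0435).

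Among the other SET and MYND genes, Smyd2 was the only 1 of 6 called higher or lower, where 58.4% of all tested genes were called. With the CD8 identity genes held equal all 6 were higher, where 81.6% of all tested genes were. The remainder are Kmt2e, a KMT2 relative without known histone methyltransferase activity, Setd3, an actin histidine methyltransferase, Setd5, Smyd3 and Smyd5. Their log2 fold changes ran from -0.15 (Smyd5) to 0.08 (Smyd3). Setd5, the most highly counted of them, had 3937, 3607 and 3848 normalized counts in the MCDHFD libraries, against 3762, 3575 and 3783 in the ND libraries, which overlapped. In Setd3 MCDHFD replicate 2 and in Smyd5 MCDHFD replicate 3 stood apart: without them Setd3 was called lower (-0.23, limma adjusted p = 0.016) and Smyd5 turned to 0.07, not called. In Setd3, 16.4% of 50-base stretches of its transcripts also occur in transcripts of other genes, so its reads may be shared. Kmt2e was called lower without ND replicate 3 (-0.18, limma adjusted p = 0.0499).

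Arginine methyltransferases had both the lowest member, Prmt2, and 2 of the 3 highest. Of the 6 measured, 3 were higher, 2 lower and 1 not called (5 higher and 1 lower with the CD8 identity genes held equal). The shares among all tested genes were 30.3% higher and 28.1% lower (81.6% and 3.76% with that scaling). Prmt7 (ENSMUSG00000060098, chromosome 8, 106210936 to 106252794, plus strand), which makes monomethylarginine, had 799.99, 767 and 755 normalized counts in the MCDHFD libraries, against 428, 509.7 and 509 in the ND libraries (log2 fold change 0.69, SE 0.08, limma adjusted p = 1.37e-04). Carm1, a coactivator that dimethylates histone H3 asymmetrically, had 1246, 1240.3 and 1312 in the MCDHFD libraries, against 797, 842 and 896 in the ND libraries (log2 fold change 0.58, SE 0.06, limma adjusted p = 6.79e-05). Every MCDHFD library was above every ND library in both, as in 33.2% of all tested genes. Yipf2, on the opposite strand, overlaps 21.1% of the exonic bases of Carm1 and went the other way (log2 fold change -0.81). Prmt5, the main symmetric dimethylase, fell (log2 fold change -0.32, limma adjusted p = 0.0028). Prmt3, which acts on a ribosomal protein, rose (log2 fold change 0.24, limma adjusted p = 0.0251), a call that ended without MCDHFD replicate 2 (0.18, limma adjusted p = 0.0863) or ND replicate 1 (0.18, limma adjusted p = 0.0807). Prmt6 was not called (log2 fold change 0.21, limma adjusted p = 0.0586) and passed without MCDHFD replicate 3 (0.25, limma adjusted p = 0.0488). The opposite-strand gene C130013H08Rik overlaps 23.4% of its exonic bases.

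**Figure D3:**
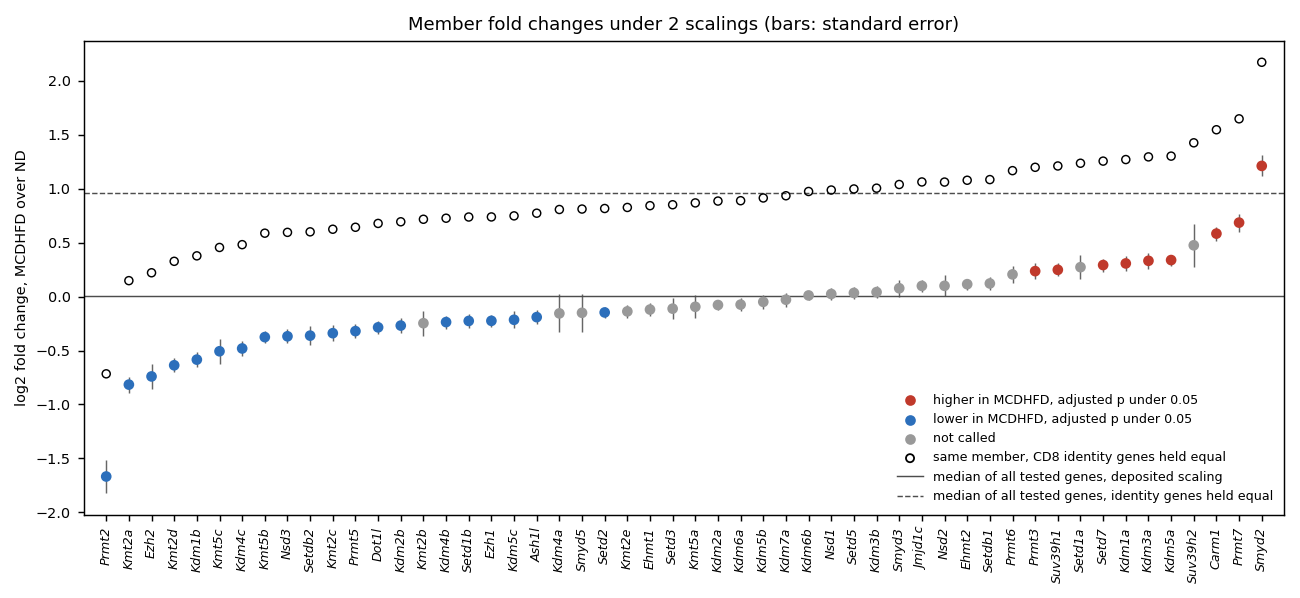
Log2 fold change of each member, MCDHFD over ND (y axis), with its standard error, coloured by call. Open circles give the same member with the mean of the CD8 identity genes held equal. Lines mark the median of all tested genes under each scaling, 0.0038 and 0.96. The other scaling shifts all members up by nearly the same amount, and only Prmt2 stays below 0 in both.

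The flavin-dependent demethylases KDM1A (LSD1) and KDM1B (LSD2), which remove mono- and dimethylation of H3K4, went opposite ways, although both were called higher with the CD8 identity genes held equal (Kdm1a 1.27 and Kdm1b 0.38). Kdm1a had 1308, 1176 and 1350.1 normalized counts in the MCDHFD libraries, against 999, 1030.2 and 1064 in the ND libraries (log2 fold change 0.31, limma adjusted p = 0.00396). Kdm1b had 416, 413 and 408 in the MCDHFD libraries, against 657, 609 and 592 in the ND libraries (log2 fold change -0.58, limma adjusted p = 1.28e-04). Neither gene overlapped between the diets. Of all tested genes 65.4% did not overlap, and 81.6% were called higher with the CD8 identity genes held equal. Dek, on the opposite strand, overlaps 9.19% of the exonic bases of Kdm1b.

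The iron-dependent JmjC demethylases (14 genes) had mostly small differences, with 2 higher, 4 lower and 8 not called in MCDHFD. With the CD8 identity genes held equal all 14 were higher. Among all tested genes 30.3% were higher and 28.1% lower, and 81.6% were higher with that scaling. In the KDM2 pair, which demethylates H3K36, Kdm2b had 536, 577 and 545 normalized counts in the MCDHFD libraries, against 677, 626 and 694 in the ND libraries (log2 fold change -0.27, limma adjusted p = 0.0101), and Kdm2a was not called (-0.08). Other annotated genes overlap 8.74% of the exonic bases of Kdm2b, and its call ended in the DESeq2 count test (DESeq2 adjusted p = 0.0634). Of the H3K9 demethylases of the KDM3 family, Kdm3a, a gene known to be induced by hypoxia, had 2554, 2230.01 and 2533 in the MCDHFD libraries, against 2083, 1904 and 1824 in the ND libraries (log2 fold change 0.33, limma adjusted p = 0.00419). Jmjd1c (0.10) and Kdm3b (0.04, with 24.6% of its exonic bases shared with the opposite-strand Gm26538) were not called, though Jmjd1c, at 3725, 3433 and 3773 in the MCDHFD libraries, against 3377, 3402 and 3416 in the ND libraries, did not overlap. Jmjd1c passed without MCDHFD replicate 2 (0.14). The KDM4 enzymes act on H3K9 and H3K36, and Kdm4c had 638, 563 and 555 in the MCDHFD libraries, against 829, 793 and 825 in the ND libraries (log2 fold change -0.48, limma adjusted p = 5.18e-04). Kdm4b had 1238, 1164 and 1219 in the MCDHFD libraries, against 1496, 1413 and 1358 in the ND libraries (log2 fold change -0.24, limma adjusted p = 0.00798). Both were lower in every MCDHFD library than in any ND library, as 32.3% of all tested genes were. Kdm4a varied within each diet, at 1427, 952 and 1362 in the MCDHFD libraries, against 1200.2, 1234 and 1727 in the ND libraries, and its difference was smaller than its standard error (log2 fold change -0.16, SE 0.18).

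KDM5 enzymes remove H3K4 trimethylation. Kdm5a had 3675, 3425 and 3542 normalized counts in the MCDHFD libraries, against 2733, 2782 and 2898 in the ND libraries (log2 fold change 0.34, SE 0.05, limma adjusted p = 4.92e-04), with no overlap. Kdm5c had 1704, 1870.3 and 1529 in the MCDHFD libraries, against 2058, 2000.1 and 1851 in the ND libraries, and was called lower although the diets overlapped (log2 fold change -0.21, limma adjusted p = 0.045). That call ended without MCDHFD replicate 1 or 3 or ND replicate 1 or 2 (log2 fold change from -0.22 to -0.14, limma adjusted p from 0.0781 to 0.151). Kdm5b was not called (-0.05). The H3K27 demethylases Kdm6a (-0.07) and Kdm6b (0.01) and the related Kdm7a (-0.03) were not called either. Kdm6b, a gene known as inducible by immune stimuli, had 4403, 4317 and 4333 in the MCDHFD libraries, against 4349, 4298 and 4306 in the ND libraries. Its 6 values lay within a narrow band, and the 95% interval of its log2 fold change ran from -0.09 to 0.11.

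Levels between genes were compared per kb of exon. In the MCDHFD libraries Kdm6b had the highest mean, at 626 normalized counts per kb, followed by Kmt2d (592), Ehmt2 (500.1), Setd1a (398) and Kmt2b (379.8), and the libraries of Kdm6b and Kmt2d overlapped. In the ND libraries the order was Kmt2d (919), Kdm6b (621), Kmt2a (569.7), Ehmt2 (462) and Kmt2b (453). Kmt2a, at 324 in MCDHFD libraries, stood below Setd1a, Kmt2b, Kdm7a, Nsd1 and Kmt2e there. The lowest levels in MCDHFD libraries were those of Prmt2 (14.2), Suv39h2 (19.8), Nsd2 (28.6) and Ezh2 (39.9). In ND libraries they were those of Suv39h2 (14.2), Nsd2 (26.7), Prmt2 (45.9) and Smyd3 (54.9). Exon lengths are GENCODE M21 unions over all transcripts, so these levels are approximate where cells use a shorter form.

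**Figure D4:**
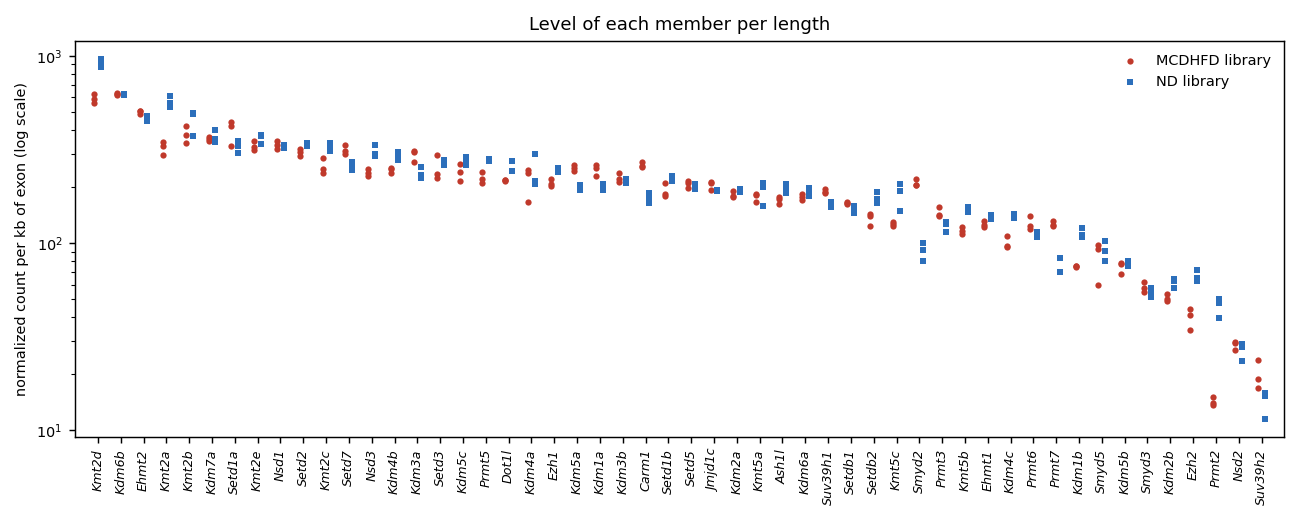
Normalized count per kb of exon (y axis, log scale) for each member, ordered by its mean over the 6 libraries, with 1 point per library; circles are MCDHFD and squares ND. By that mean Kmt2d leads and Suv39h2 is last; Prmt2 shows the widest gap between diets.

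Ratios between related enzymes within a library do not depend on how the libraries were scaled. Of 15 pairs compared, the diets did not overlap in 10, with a lower ratio in MCDHFD in 8 and a higher one in 2. The direction depends on which gene of a pair is written first. Of all single tested genes 65.4% did not overlap, and the share for ratios of other gene pairs was not computed. The log2 ratio of Kdm1b over Kdm1a was -1.65, -1.51 and -1.72 in the MCDHFD libraries, against -0.60, -0.76 and -0.85 in the ND libraries (difference -0.89). That of Ezh2 over Ezh1 was -2.84, -2.47 and -2.33 in the MCDHFD libraries, against -1.90, -2.05 and -2.15 in the ND libraries (difference -0.52). For Kmt2b over Kmt2a, the log2 ratios were -0.68, -0.59 and -0.44 in the MCDHFD libraries, against -1.12, -1.32 and -0.97 in the ND libraries (difference 0.57). The difference was -0.48 for Setdb2 over Setdb1, -0.39 for Kdm5b over Kdm5a, -0.30 for Kmt2d over Kmt2c, -0.29 for Kdm3b over Kdm3a and -0.19 for Kdm2b over Kdm2a. It was 0.24 for Ehmt2 over Ehmt1, and the Setd1b over Setd1a ratio (difference -0.50) is uncertain because of the gene that shares exons with Setd1a. The ratios of Kdm6b over Kdm6a (0.09), Nsd2 over Nsd1 (0.08), Suv39h2 over Suv39h1 (0.23), Kmt5c over Kmt5b (-0.13) and Kdm4c over Kdm4a (-0.33) overlapped between diets. Each of the 10 gave p = 0.1 in a two-sided exact permutation test over 20 arrangements, the smallest p that 3 against 3 libraries allow, and 0.15 after Benjamini-Hochberg adjustment over the 15 pairs, so none can pass 0.05.

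**Figure D5:**
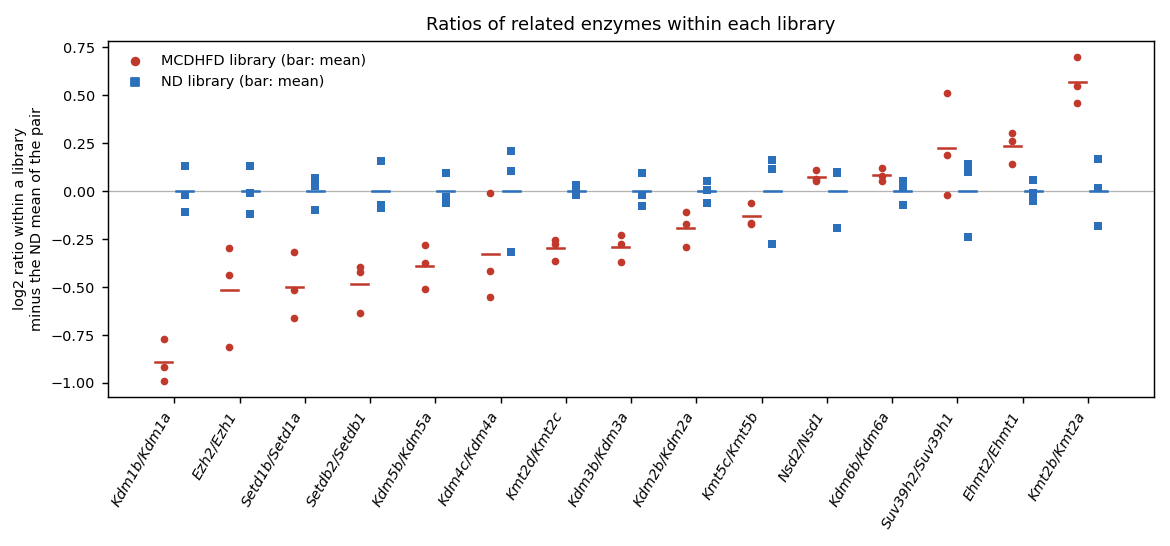
Log2 ratio of 2 related enzymes within each library, minus the pair's ND mean (y axis), for 15 pairs; circles are MCDHFD libraries, squares ND libraries and bars their means. Kdm1b over Kdm1a lies lowest in MCDHFD (difference -0.89) and Kmt2b over Kmt2a highest (0.57).

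The enzymes work with partner proteins, which were read from lists written from general knowledge. Their counts stand beside 30.3% higher and 28.1% lower among all tested genes (81.6% and 3.76% with the CD8 identity genes held equal). Of 12 tested COMPASS and MLL subunits, 7 were lower and 1 higher (12 higher with the CD8 identity genes held equal). They included Men1, which tethers KMT2A to chromatin, at 469 ± 44.7 normalized counts in MCDHFD libraries and 728 ± 45.3 in ND libraries (log2 fold change -0.63), Psip1, which also tethers it (-0.61), and Cxxc1, the CpG-binding subunit of the SETD1 complexes (-0.42). Of 10 tested PRC2 genes, 5 were lower and 2 higher (9 higher with the CD8 identity genes held equal), among them the accessory genes Phf19 (-0.85), Epop (0.42) and Jarid2 (-0.38). The PRC2 core genes Eed (0.02, limma adjusted p = 0.79) and Suz12 (-0.38, limma adjusted p = 0.134) were not called. Of 8 DOT1L partners and elongation factors, 3 were lower and 2 higher (7 higher with the CD8 identity genes held equal), with Mllt3, the AF9 gene, at 772 ± 74.7 normalized counts in MCDHFD libraries and 1635 ± 61.5 in ND libraries (log2 fold change -1.08) and Ell2, an elongation factor of plasma cells, higher (0.78). The plasma cell list had 5 of 9 higher and 1 lower, and a link between that list and the rise of Ell2 was not tested.

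Of 9 LSD1 and CoREST partners, 5 were lower and 2 higher (9 higher with the CD8 identity genes held equal), among them Rcor2 (0.78) and Zmym3 (-0.54). For this list and the next ones the shares among all tested genes were again 30.3% higher and 28.1% lower (81.6% and 3.76% with that scaling). Partners of H3K9 methylation were mostly not called, with 1 of 10 lower, Atf7ip (-0.30), which stabilizes SETDB1, and 1 higher, Pphln1 (0.39), a subunit of the HUSH silencing complex (10 higher with the CD8 identity genes held equal). Of 7 PRMT partners, 3 were higher and 1 lower (7 higher with the CD8 identity genes held equal). The lower one was Btg1, an antiproliferative cofactor of arginine methylation, at 18937 ± 528 normalized counts in MCDHFD libraries and 28672 ± 1511 in ND libraries (log2 fold change -0.60). The higher ones were Coprs, a PRMT5 partner, at 28.2, 27.5 and 26.8 normalized counts in the MCDHFD libraries, against 12.7, 15.6 and 6.93 in the ND libraries (log2 fold change 1.23), Smn1 (0.27) and the PRMT5 partner Riok1 (0.18). The PRMT5 partners Wdr77 (-0.09) and Clns1a (0.00) were not called. Of 18 further genes of methylation enzymes and related proteins, 6 were lower and 3 higher (15 higher and 1 lower with the CD8 identity genes held equal). Prdm1, the Blimp-1 gene of plasma and effector cells, averaged 264 ± 45.9 in MCDHFD libraries and 92.5 ± 8.26 in ND libraries (log2 fold change 1.49). Prdm1 is also on the plasma cell list. Hr, a demethylase gene with 4.71, 4.91 and 5.59 normalized counts in the MCDHFD libraries, against 21.5, 24.3 and 22.8 in the ND libraries, and Kdm4d, with 0, 2.95 and 12.3 in the MCDHFD libraries, against 18.6, 24.3 and 12.9 in the ND libraries, were lower at very low counts.

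The supply of the methyl donor was read from 8 tested genes, of which 2 were higher and none lower (7 higher with the CD8 identity genes held equal). Among all tested genes 30.3% were higher and 28.1% lower (81.6% and 3.76% with that scaling). Mat2a, the gene of the enzyme that makes S-adenosylmethionine outside the liver, averaged 2289 ± 499 normalized counts in MCDHFD libraries and 2102 ± 222 in ND libraries and was not called (log2 fold change 0.10, limma adjusted p = 0.591). Ahcy, which clears the product S-adenosylhomocysteine, averaged 370.1 ± 10.6 in MCDHFD libraries and 376 ± 37.7 in ND libraries (log2 fold change -0.02, limma adjusted p = 0.874). Gnmt, a glycine methyltransferase that consumes the donor, had 25.4, 18.7 and 26.8 in the MCDHFD libraries, against 7.83, 11.7 and 8.91 in the ND libraries (log2 fold change 1.24), and Mat2b rose slightly (0.20).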

How the data were processed

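The authors deposited 1 table of normalized read counts per gene (a scaled signal, not raw counts) for 19323 genes, per the file headers. The build is mm10, per the submitters' processing notes; for the aligner, counter, annotation and strand setting, nothing is given in the sources used here. In 5 of 6 libraries the values were taken as whole multiples of 1 step (tolerance 0.01), and these recovered reads served for count tests. The values of ND replicate 3 also look like multiples of a step near 1, but were not accepted as recovered reads, so it was left out of these tests. Values plus a pseudocount of 1 were taken to log2, genes with a mean of at least 10 were kept (13430), and MCDHFD was compared with ND by limma 3.58.1 with Benjamini-Hochberg adjustment at 0.05, in R 4.3.3. edgeR 4.0.16 and DESeq2 1.42.0 were alternatives, beside other pseudocounts, filters, scalings, library weights, a replicate block and leaving out each library; scripts were tested on simulated data. Replicates differed beyond sampling noise (chi-square per degree of freedom 6.11 to 11.5 over 4 pairs). Gene models are GENCODE M21, and 19202 Ensembl identifiers matched a symbol.

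Values per library are given for up to 3 called genes of each role by size of change and for the most highly counted one; partner lists name up to 3 called genes, and marker lists up to 2 by mean. Cd8a, the core genes of partner lists and the genes sharing exons were named outside that rule. The genes and lists were chosen with earlier results of these data known. 1 listed gene is not analysed here, and 1 partner gene that the rule would name is not reported here.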

Additional observations from a re-analysis of the deposited data

How the results depend on the processing

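Of 29 called members, 23 kept their call in all 16 other settings beside the scaling to CD8 identity genes; Ash1l, Kdm2b, Kdm5c, Prmt3, Setd1b and Setd2 lost it in at least 1. Calls at 1.5-fold or more numbered 4546 over all genes, with 2 members higher and 4 lower. With quantile scaling the member median was -0.16 and that of all genes -0.083 (3552 higher and 4557 lower). Leaving out 1 library gave 7069 to 7677 genes called, 8 to 10 members higher, 16 to 19 lower and a member median of -0.12 to -0.07. With edgeR 7145 genes were called and with DESeq2 6723. Whether replicate numbers pair the libraries is not settled. Deviations of same-number libraries correlated weakly (0.0057 to 0.0621), although 5 of 6 libraries correlated best with their own number. A replicate block gave 7707 genes, 11 members higher and 21 lower.

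With the CD8 identity genes held equal, 11461 genes were called (10956 higher, 505 lower), the all-gene median was 0.96, and 49 members were called higher and 1 lower (member median 0.86). Signs then turned for Kmt2a (0.15), Kmt2b (0.72), Kmt2c (0.62), Kmt2d (0.33), Setd1b (0.74), Setdb2 (0.60), Ehmt1 (0.84), Ezh1 (0.74), Ezh2 (0.22), Nsd3 (0.60), Setd2 (0.82), Ash1l (0.77), Dot1l (0.68), Kmt5a (0.87), Kmt5b (0.59), Kmt5c (0.46), Kmt2e (0.83), Setd3 (0.85), Smyd5 (0.81), Prmt5 (0.64), Kdm1b (0.38), Kdm2a (0.89), Kdm2b (0.69), Kdm4a (0.81), Kdm4b (0.73), Kdm4c (0.48), Kdm5b (0.91), Kdm5c (0.75), Kdm6a (0.89) and Kdm7a (0.93). Uncalled members near 0 also turned: Nsd1 with edgeR (-0.0013) and with 1 library left out (-0.011 to 0.061), Smyd3 with quantile scaling (-0.0070), Kdm6b with edgeR (-0.0034), and Kdm4a with edgeR (0.022) and DESeq2 (0.027). With 1 library left out, Kdm3b ran from -0.00083 to 0.073, Smyd5 from -0.28 to 0.073, Kdm5b from -0.082 to 0.013, Kdm7a from -0.073 to 0.033, Kdm4a from -0.26 to 0.028, and the Nsd2 over Nsd1 difference from -0.021 to 0.12. Apart from these scalings, the cause was not tested. Suv39h2 and Prmt2, at under 200 normalized counts, had the lowest counts of the members, which limits their precision.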
